A study of Homo sapiens with 12 samples.

Results

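The histone genes measured here were the protein-coding genes of the deposited count table whose names begin with HIST1H to HIST4H, H1F, H2AF or H3F and whose mean raw count over the 12 libraries was at least 10. Of 87 genes with such names, 42 reached this minimum, out of 58735 rows in the table and 16618 genes that were tested. They comprised 31 of 71 replication-dependent genes, which carry HIST names, and 11 of 16 replacement genes. The genes were chosen by their names and their mean raw count in these libraries, which is given as a description only. Just above the minimum lay HIST1H2AI, HIST1H2BF and HIST1H1E, with mean raw counts of 11.9, 12.2 and 12.4. Just below it lay HIST1H4K, HIST1H1B and HIST1H2BO, with 9.83, 8.92 and 7.42, and 13 of the 45 genes left out had no count in any library.

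Histones are the proteins on which DNA is wound, with pairs of H2A, H2B, H3 and H4 forming the nucleosome core and H1 sitting on the linker DNA. Replication-dependent histone genes lie in clusters and are transcribed while DNA is copied. Their mRNAs usually lack a poly(A) tail and end instead in a short stem-loop, which is bound by the protein SLBP. Replacement histones are made throughout the cell cycle from spliced or unspliced, polyadenylated mRNAs and are exchanged into chromatin independently of replication. Some replication-dependent genes also give polyadenylated transcripts, and a library of polyadenylated RNA mainly samples these.

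RNA came from HaCaT, a spontaneously immortalized human skin keratinocyte line, and TIGK, a human gingival keratinocyte line immortalized with telomerase. Both were grown to confluency in the same serum-free keratinocyte medium and were either left untreated or given H2O2 at 5 mM over 3 h. The 4 groups hold 3 libraries apiece. Each body site is represented by 1 cell line, so skin and gingiva cannot be told apart from the particular lines, and neither source states whether the 3 samples of a group came from separate cultures, so that p-values measure the spread between these samples, which may be technical. The treatment labels do not spell H2O2 alike in all treated replicates, whereas the protocol gives it for every one, and the protocol was followed.

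Library totals lay between 30426401 and 49034244 counts, and the 42 histone genes took between 0.179% and 0.272% of them. All 11 keratinocyte markers were detected, with a summed level between 38353 and 43648 CPM per library, where CPM is the count divided by the scaled library size. Summed levels ranged from 0.767 to 2.59 CPM for 4 melanocyte markers, 8.51 to 19.6 for 5 fibroblast markers, 0 to 3.4 for 4 leukocyte markers and 0.160 to 1.65 for 3 endothelial markers. In untreated cells, COL1A1, PDGFRB and CD14 were lower in HaCaT than in TIGK and VWF was higher, while TYR had at most 2 counts in a library and COL1A2 had 0 in all of them. The part of these genes in the differences between the lines was not tested.

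The stem-loop was searched in the GRCh38 sequence within 150 bases after each stop codon, as 6 paired bases on either side of a loop of 4. It was found in 30 of the 31 replication-dependent genes measured, the exception being HIST1H2AG, and in 39 of the 40 below the minimum, the exception being HIST1H2AK. Among the 11 replacement genes it was found in H2AFX, whose protein is phosphorylated at DNA breaks. The following 6 show its forms in genes on which the results turn, read from GRCh38 in the direction of the gene, with the paired bases in capitals and the loop in lower case.
HIST1H2BK, chr6:27146366-27146381, minus strand: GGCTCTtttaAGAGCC
HIST1H1C, chr6:26055744-26055759, minus strand: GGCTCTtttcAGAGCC
HIST2H2BE, chr1:149886188-149886203, minus strand: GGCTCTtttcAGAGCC
HIST2H2AC, chr1:149887391-149887406, plus strand: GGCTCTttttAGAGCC
HIST1H4I, chr6:27139654-27139669, plus strand: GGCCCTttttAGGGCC
H2AFX, chr11:119094898-119094913, minus strand: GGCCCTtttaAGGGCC
The form shown for HIST1H1C and HIST2H2BE was the most common and was held by 41 genes. A first arm that begins with GGCCC, as in HIST1H4I and H2AFX, occurred in H4 genes and in H2AFX alone.

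The genes that reached the minimum differed from those that did not in where their annotation ends. In 22 of the 30 measured replication-dependent genes with a stem-loop, the deposited gene extended more than 100 bases past it, with a median of 1288.5 bases. Below the minimum this held for 2 of 39 genes, and the median gene ended 48 bases before the end of the stem-loop (median -48). A longer annotated gene also collects more reads, so length and transcript form cannot be told apart from these counts. Among the exceptions were HIST1H2BK, HIST1H1C and HIST2H2AC, whose deposited genes ended 52, 43 and 42 bases before the end of the stem-loop and had lengths of 381, 642 and 390 bases. These 3 deposited genes end at the stop codon and were thus counted without any sequence after it.

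**Figure D1:**
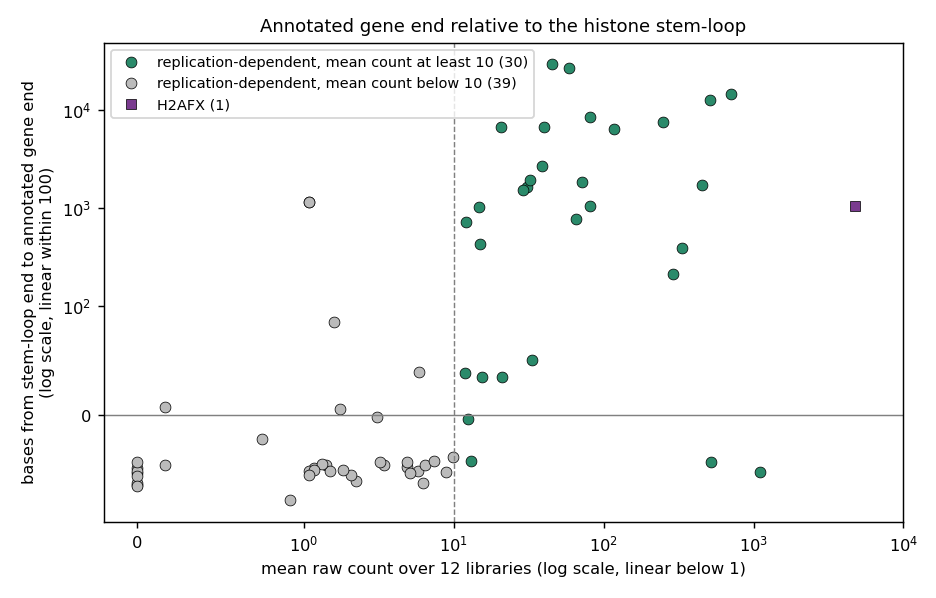
Distance in bases from the end of the stem-loop to the deposited gene end (vertical axis, log scale, linear within 100) against the mean raw count over the 12 libraries (horizontal axis, log scale, linear below 1) for the 70 genes with a stem-loop, 1 point per gene, with the minimum of 10 as a dashed line. Most of the 30 measured replication-dependent genes lie above 100 bases and most of the 39 below the minimum lie near or under 0.

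Promoters from 250 bases before to 50 after the start were taken from RefSeq (GRCh38.p14) and covered 40 of the 42 genes. A TATA box, searched as the letters TATAAA on both strands, was present in 58.06% of the 31 replication-dependent promoters against 11.53% of all 35116 promoters. The CCAAT box, searched by these letters on both strands, was present in 83.87% against 34.61%. The octamer, known from H2B promoters and searched as ATTTGCAT on both strands, was present in 41.94% against 1.774%. Of the 9 replacement promoters, 4 held the TATA box, 6 the CCAAT box and 1, that of H3F3B, the octamer. Over all replication-dependent names, the octamer was found in 77.78% of 18 H2B promoters, in 68.75% of 16 H2A promoters and in 0 of 13 H4 promoters. Histone genes often stand head to head, and 12 neighbouring pairs did so within 1000 bases, of which 11 joined an H2A and an H2B gene and 5 had both genes measured. The windows of such a pair can overlap, and the same octamer is then counted for the H2A and the H2B gene. The promoters below are those of HIST1H2BK, the most abundant replication-dependent gene, of HIST2H2BE and HIST1H2BJ, whose windows overlap those of HIST2H2AC and HIST1H2AG, and of H2AFZ, a replacement gene. Capitals mark the 3 motifs or their reverse complements, which can run into each other, and H1F0 and H3F3C had no entry.
HIST1H2BK, chr6:27146809-27147108, minus strand: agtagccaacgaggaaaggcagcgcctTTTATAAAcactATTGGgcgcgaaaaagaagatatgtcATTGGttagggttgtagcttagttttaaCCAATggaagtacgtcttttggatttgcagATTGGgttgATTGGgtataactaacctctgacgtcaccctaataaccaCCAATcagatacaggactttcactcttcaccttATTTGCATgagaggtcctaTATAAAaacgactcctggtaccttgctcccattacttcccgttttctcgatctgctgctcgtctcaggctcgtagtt
HIST2H2BE, chr1:149886633-149886932, minus strand: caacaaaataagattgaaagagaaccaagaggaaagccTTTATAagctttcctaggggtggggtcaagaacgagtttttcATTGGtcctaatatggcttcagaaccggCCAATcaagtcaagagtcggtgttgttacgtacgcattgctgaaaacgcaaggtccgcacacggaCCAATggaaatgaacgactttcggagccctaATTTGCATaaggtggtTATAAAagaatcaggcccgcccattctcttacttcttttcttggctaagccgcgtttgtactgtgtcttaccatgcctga
HIST1H2BJ, chr6:27132746-27133045, minus strand: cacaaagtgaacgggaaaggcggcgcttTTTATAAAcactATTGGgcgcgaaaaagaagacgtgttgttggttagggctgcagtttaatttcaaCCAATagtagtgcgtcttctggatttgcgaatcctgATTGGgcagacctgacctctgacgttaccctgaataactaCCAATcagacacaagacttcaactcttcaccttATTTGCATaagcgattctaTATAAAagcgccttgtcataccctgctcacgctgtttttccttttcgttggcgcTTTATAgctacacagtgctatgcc
H2AFZ, chr4:99950226-99950525, minus strand: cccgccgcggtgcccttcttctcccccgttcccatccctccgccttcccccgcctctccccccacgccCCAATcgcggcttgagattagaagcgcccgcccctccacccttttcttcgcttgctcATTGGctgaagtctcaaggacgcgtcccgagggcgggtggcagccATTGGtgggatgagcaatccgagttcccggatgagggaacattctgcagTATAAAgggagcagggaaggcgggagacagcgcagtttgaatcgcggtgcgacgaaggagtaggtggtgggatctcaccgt

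Most histone mRNA counted in these polyadenylated libraries came from the replacement genes. The summed level of the 31 replication-dependent genes was 157.9 ± 7.2 CPM in untreated HaCaT (SD, n = 3), 183 ± 15.6 in HaCaT after H2O2, 102.8 ± 7.81 in untreated TIGK and 124.1 ± 1.55 in TIGK after H2O2. The 11 replacement genes summed to 1707 ± 7.22, 1952 ± 142, 2314 ± 119 and 2456 ± 37.1 CPM in the same order. The replication-dependent share of histone counts was thus 8.46% ± 0.386 and 8.57% ± 0.167 in HaCaT before and after H2O2, and 4.25% ± 0.128 and 4.81% ± 0.0806 in TIGK. After division by gene length the share was larger, at 28.2% ± 0.689, 29.9% ± 1.12, 14.5% ± 0.586 and 16.4% ± 0.236. Much of this came from HIST1H2BK, whose deposited length is only 381 bases. In the same order it gave 92.1, 127, 45.5 and 58.8 of the 193, 242, 122 and 150 CPM per kb of its class. The 2 lines did not overlap in either sum or in the shares. The 40 replication-dependent genes below the minimum together gave between 1.48 and 3.73 CPM per library.

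**Figure D2:**
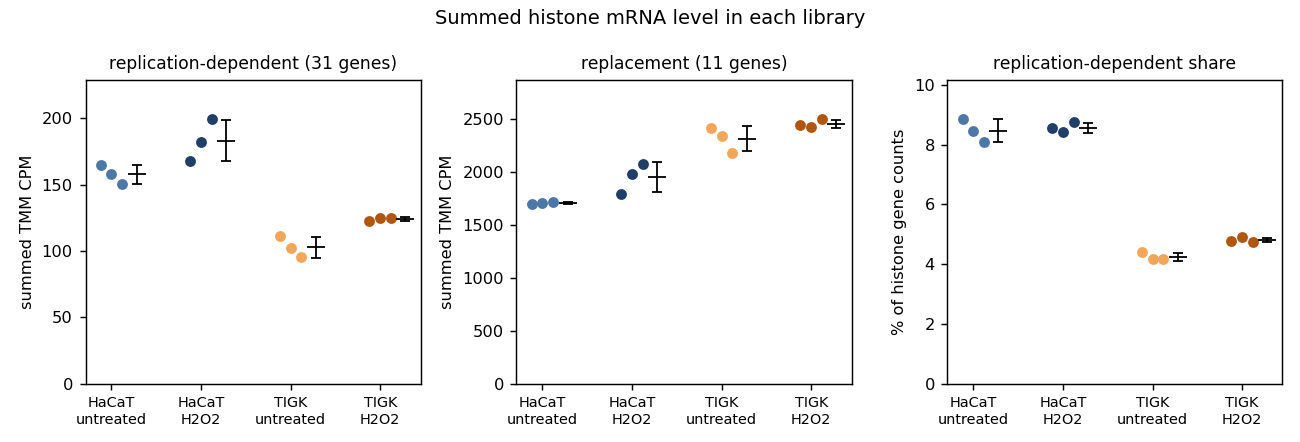
Summed level of the replication-dependent and the replacement histone genes in TMM-scaled CPM, and the replication-dependent share of their counts in percent, for each of the 12 libraries (points), with the mean and SD of each group of 3. Replication-dependent sums were higher in HaCaT and replacement sums higher in TIGK.

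Between the lines the 2 sums differed in opposite directions, and after H2O2 both were higher in each line. In untreated cells the replication-dependent sum was 1.54-fold higher in HaCaT (0.62 on the log2 scale), and the replacement sum differed by -0.44. After H2O2 the values were 0.56 and -0.33. The response to H2O2 of the replication-dependent sum was 0.21 in HaCaT and 0.27 in TIGK, and that of the replacement sum 0.19 and 0.09. These ratios of group means were not tested, because the genes were chosen. Without the 6 replacement genes that overlap another gene, the value for the replacement sum in HaCaT was -0.0752 instead, with H1F0 among the 5 genes left. Of the 31 replication-dependent genes, 15 had a response above 0 in HaCaT and 21 in TIGK. HIST1H2BK alone went from 35.1 to 48.4 CPM in HaCaT, where the sum went from 158 to 183. In TIGK it went from 17.3 to 22.4 CPM, where the sum went from 103 to 124. Fewer cells of a kind and less RNA per cell cannot be told apart in such bulk samples.

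A few genes carried each class. H3F3B held 30.8% of the replacement counts and HIST1H2BK 21.7% of the replication-dependent ones, and 7 replication-dependent genes held 76.4% of their class. On the scale of CPM per kb of deposited gene length, averaged over the 12 libraries, the highest replacement genes were H1F0 at 182, H2AFZ at 107, H3F3B at 106, H2AFX at 82 and H3F3A at 57.2. This order was not the same in every group, since H1F0 was at 266 and 263 in TIGK before and after H2O2 but at 116 and 84.4 in HaCaT, where H3F3B at 106, H2AFX at 99.9 and H2AFZ at 91.4 lay above it after H2O2. The highest replication-dependent genes were HIST1H2BK at 80.9, HIST1H1C at 22.2, HIST1H2BD at 16.2, HIST1H2AC at 11.6 and HIST3H2A at 10.5. The short deposited length of HIST1H2BK raises its value on this scale. In 21 of the 31 replication-dependent genes the mean raw count was below 100, against 1 of the 11 replacement genes. The SE of the log2 response of HaCaT had a median of 0.30 in the former and 0.07 in the latter, so that small changes could be seen mainly in replacement genes.

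The first comparison asked which histone genes changed within each line after 3 h of H2O2. In HaCaT, 6 of 11 replacement genes rose and 1 fell at an adjusted p below 0.01, with a median log2 change of 0.39, while 1 of 31 replication-dependent genes rose and 0 fell, with a median of -0.03. Among all genes tested, 18.9% rose and 15.2% fell, with a median of 0.04. In TIGK, 2 replacement and 2 replication-dependent genes rose and 0 histone genes fell, with medians of 0.10 and 0.15. The shares over all genes were 10.2% higher and 12.9% lower, with a median of 0.01. The replication-dependent share called was below that of all genes in both lines, and the low counts of most of these genes limit what could be called. H2AFY2, H3F3A and HIST1H2BK rose in both lines. Without the histone genes that overlap another gene or have a near-identical copy, the number that rose went from 7 to 1 in HaCaT, leaving H2AFX, and from 4 to 0 in TIGK.

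**Figure D3:**
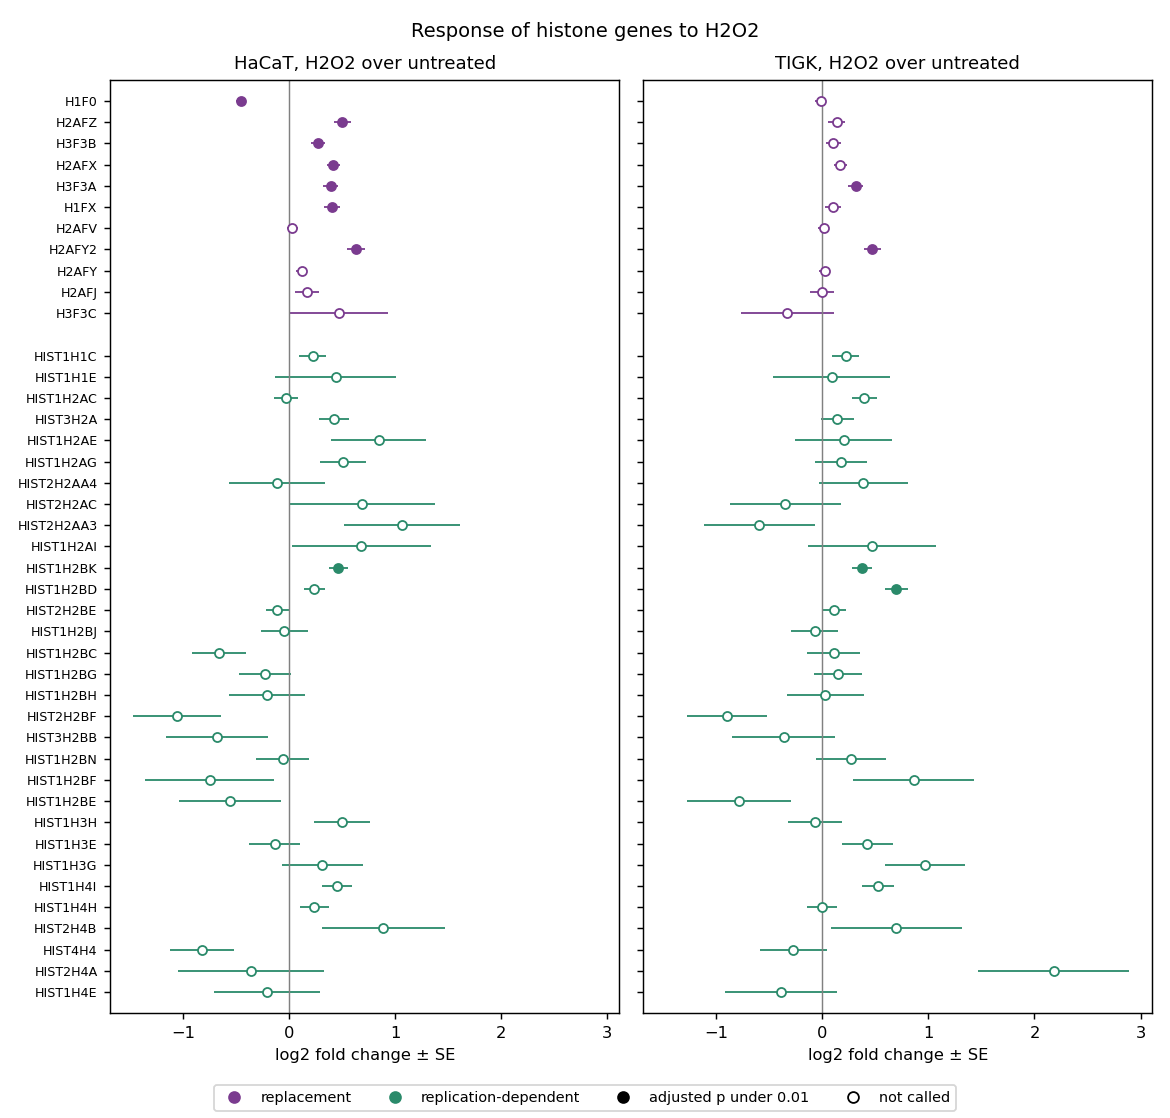
Log2 fold change after H2O2 with its SE for each of the 42 histone genes in HaCaT (left) and TIGK (right), with filled points for an adjusted p below 0.01. Replacement genes other than H3F3C have short error bars, and those called in HaCaT lie above 0 apart from H1F0, while most replication-dependent genes have wide bars and were not called.

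Of the linker histones, H1F0 encodes the replacement form H1.0, known from cells that stop dividing. Its level was 279, 263 and 273 CPM in untreated HaCaT, 196, 204 and 194 in HaCaT after H2O2, 642, 619 and 610 in untreated TIGK and 606, 596 and 648 in TIGK after H2O2. All treated HaCaT libraries lay below all untreated ones, whereas those of TIGK overlapped. H1F0 fell by 0.46 ± 0.05 (log2, SE) in HaCaT (edgeR adjusted p = 1.26e-06) and gave -0.02 ± 0.05 in TIGK (adjusted p = 0.842). The difference of the responses, TIGK minus HaCaT, was 0.44 ± 0.07 (adjusted p = 0.000488). It was the only one of the 42 genes whose responses differed between the lines at the limit, where 2.32% of all genes were called higher in TIGK and 2.98% lower. H1FX, a replacement linker histone that shares its locus with an antisense gene, rose by 0.41 ± 0.08 in HaCaT (adjusted p = 0.00025), from 51.9 ± 1.22 to 68.8 ± 7.29 CPM.

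The H2A variants moved unequally. H2AFZ encodes H2A.Z, which marks promoters, and was measured at 153, 149 and 145 CPM in untreated HaCaT, 176, 219 and 236 after H2O2, 308, 312 and 272 in untreated TIGK and 338, 323 and 317 after H2O2. The HaCaT groups did not overlap and H2AFZ rose by 0.50 ± 0.08 there (adjusted p = 7.13e-05), while its response in TIGK was 0.13 ± 0.08 (adjusted p = 0.204). The difference of these responses, -0.37 ± 0.11, missed the limit (adjusted p = 0.0427) and passed it without treated HaCaT replicate 1. H2AFV, which encodes the closely related H2A.Z.2, gave 0.03 ± 0.05 in HaCaT and 0.01 ± 0.05 in TIGK, and was not called.

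H2AFX rose in HaCaT from 121 ± 2.33 to 161 ± 15 CPM, by 0.41 ± 0.06 (adjusted p = 3.26e-05), and gave 0.17 ± 0.06 in TIGK (adjusted p = 0.0424). H2AFY2, which encodes the macroH2A2 variant of silent chromatin, was at 21.9, 20.2 and 21.1 CPM in untreated HaCaT, 29.4, 34.5 and 34.1 after H2O2, 31.2, 26.1 and 27.7 in untreated TIGK and 41.5, 36.9 and 39.5 after H2O2. Every treated library lay above every untreated one of its line. H2AFY2 rose by 0.63 ± 0.09 in HaCaT (adjusted p = 1.13e-05) and by 0.47 ± 0.08 in TIGK (adjusted p = 0.000249). Its relative H2AFY, which encodes macroH2A1, gave 0.12 ± 0.05 and 0.02 ± 0.05 and was called in neither line. H2AFJ, which encodes H2A.J, gave 0.17 ± 0.11 and -0.01 ± 0.11 and was not called either. H2AFY2, H2AFY and H2AFZ overlap genes on the opposite strand, and use of strand in the counting is not given in the sources used here.

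H3F3A and H3F3B encode the same protein, H3.3. H3F3A was at 166, 173 and 168 CPM in untreated HaCaT and at 206, 220 and 240 after H2O2, and at 161, 151 and 128 in untreated TIGK and 180, 184 and 182 after H2O2. The groups of each line did not overlap, and H3F3A rose by 0.39 ± 0.07 in HaCaT (adjusted p = 0.000196) and by 0.32 ± 0.07 in TIGK (adjusted p = 0.00193). Its call in TIGK was lost without untreated TIGK replicate 3 (adjusted p = 0.0114). H3F3B rose by 0.27 ± 0.07 in HaCaT (adjusted p = 0.00414), from 540 ± 8.31 to 651 ± 80.1 CPM, a call lost under 14 of 24 alternatives, and gave 0.10 ± 0.07 in TIGK. H3F3A overlaps AL512343.2 on the opposite strand, and H3F3B overlaps UNK on the opposite strand and MIR4738 on the same strand. H3F3C, an H3.3 relative known from testis, had at most 27 counts in a library and was not called.

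Replication-dependent genes called after H2O2 were both H2B genes. HIST1H2BK was at 35.3, 35.8 and 34.2 CPM in untreated HaCaT and 42.2, 50.5 and 52.4 after H2O2, and at 19.9, 16.1 and 16 in untreated TIGK and 22.6, 21.6 and 23.0 after H2O2. No treated library overlapped the untreated ones of its line. HIST1H2BK rose by 0.46 ± 0.09 in HaCaT (adjusted p = 0.000396) and by 0.37 ± 0.10 in TIGK (adjusted p = 0.00509). The TIGK call was lost when any of untreated replicates 2 and 3 or treated replicates 1 and 3 was left out, at an adjusted p of up to 0.0283. Of the 50-base stretches of HIST1H2BK, 57.2% also occur in at least 1 other gene, most often in H2BFS.

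HIST1H2BD was at 7.74, 6.69 and 6.94 CPM in untreated TIGK and at 10.9, 11.1 and 12.5 after H2O2, with no overlap, and rose by 0.69 ± 0.11 (adjusted p = 6.81e-05). In HaCaT it gave 0.23 ± 0.10 (adjusted p = 0.0642), and the difference of the responses, 0.46 ± 0.15, missed the limit (adjusted p = 0.0496). The deposited HIST1H2BD gene overlaps LARP1P1 on the same strand and AL353759.1 on the opposite strand. HIST1H4I in both lines and HIST1H2AC in TIGK lay just outside the limit. HIST1H4I gave 0.45 ± 0.14 in HaCaT (adjusted p = 0.0128) and 0.52 ± 0.15 in TIGK (adjusted p = 0.0117). HIST1H2AC gave -0.03 ± 0.11 in HaCaT and 0.40 ± 0.11 in TIGK (adjusted p = 0.0107), where 16 alternatives called it higher. The largest fitted value in TIGK, 2.18 ± 0.71 for HIST2H4A (adjusted p = 0.0229), rested on 1 treated library at 2.56 CPM beside 0.577 and 0.218, and this gene shares nearly all its sequence with HIST2H4B.

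**Figure D4:**
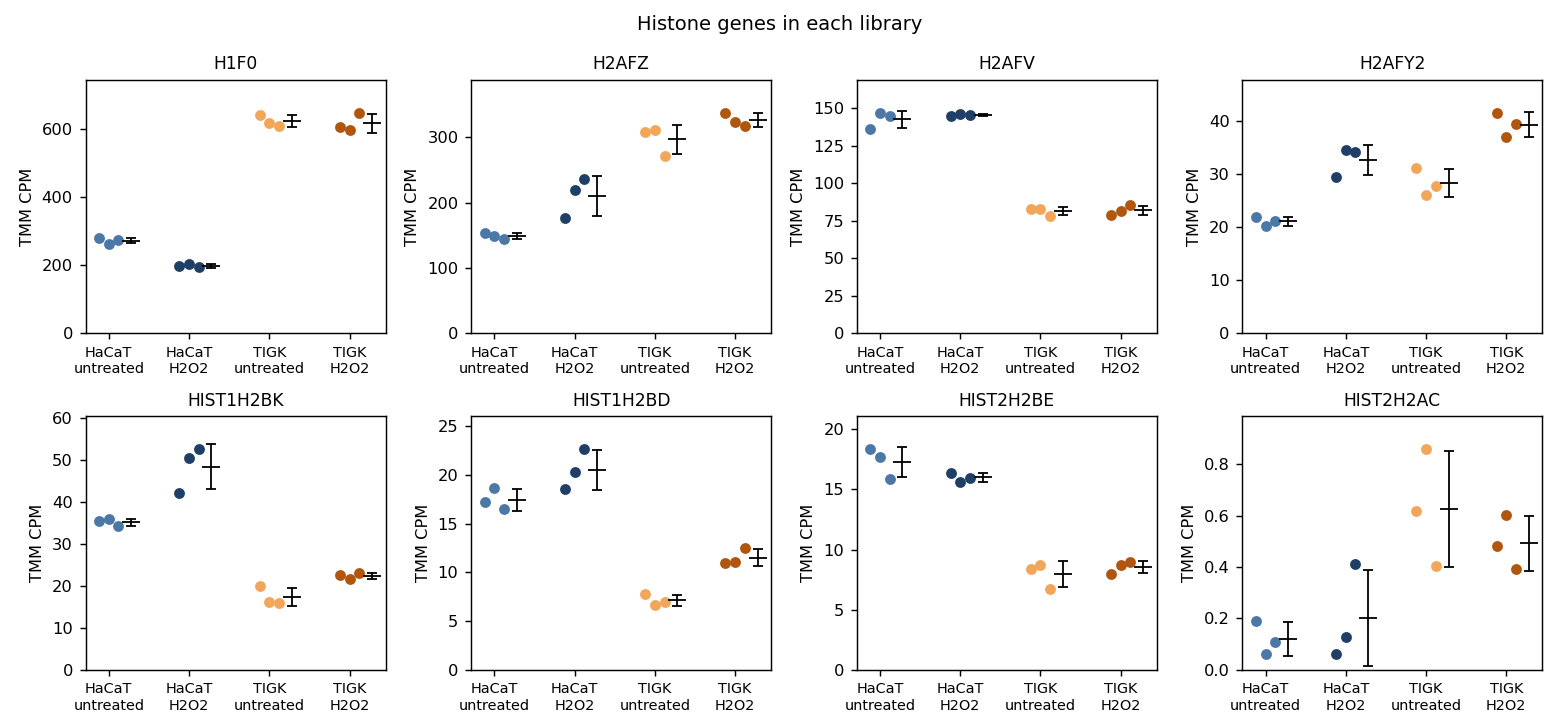
Level in TMM-scaled CPM of 8 histone genes in each of the 12 libraries (points), with the mean and SD of each group of 3 and each vertical axis starting at 0. H1F0 fell after H2O2 in HaCaT, H2AFV differed between the lines in both conditions, and HIST2H2BE was higher in HaCaT, while its neighbour HIST2H2AC, which reached the minimum through TIGK, had few counts.

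The second question was how the lines differed. In untreated cells, 8 replication-dependent genes were called higher and 2 lower in HaCaT over TIGK (median log2 difference 0.20), against 1 replacement gene higher and 6 lower, with a median of -0.33. Over all genes, 29.1% were called higher and 30.8% lower, with a median of -0.01. After H2O2, 7 replication-dependent genes were higher and 2 lower (median 0.08), and 4 replacement genes were higher and 3 lower (median -0.09). The shares over all genes were then 30.2% and 29.8%, with a median of 0.02. The untreated and treated comparisons share no libraries, and 7 replication-dependent genes were higher in HaCaT in both, which is 7 of 8 and 7 of 7. Over all genes, 83.4% of those called higher in untreated HaCaT were also called higher after H2O2, and 80.5% the other way round, so that nothing particular to histones is read from this.

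**Figure D5:**
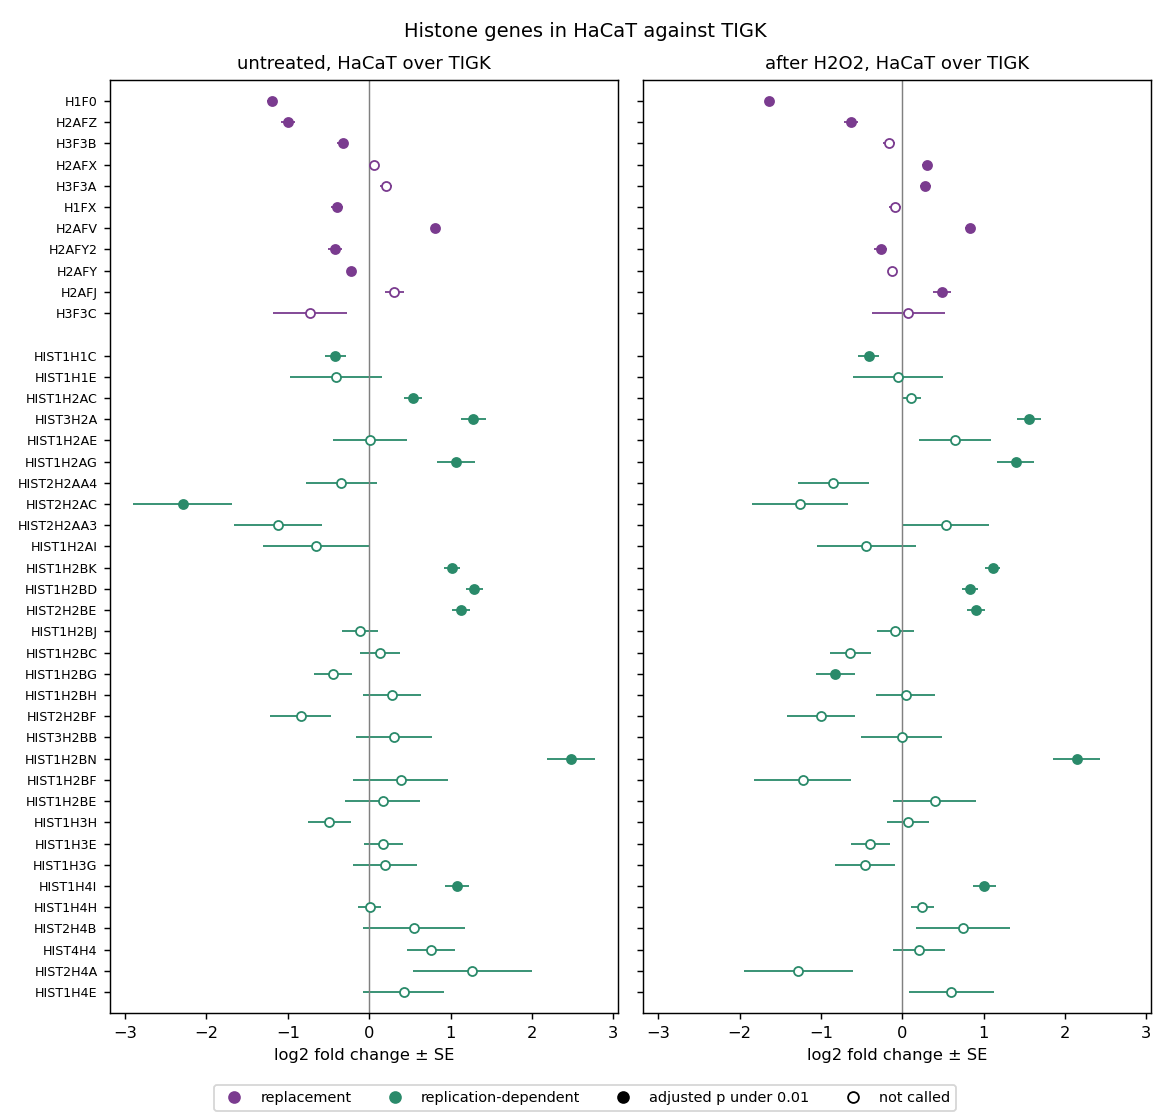
Log2 fold change of HaCaT over TIGK with its SE for each of the 42 histone genes in untreated cells (left) and after H2O2 (right), with filled points for an adjusted p below 0.01. HIST1H2BN lies farthest to the right in both, and HIST2H2AC farthest to the left among untreated cells.

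Among replacement genes, H1F0 was lower in HaCaT, with a log2 difference of -1.20 ± 0.05 in untreated cells (adjusted p = 1.36e-13), and after H2O2 the difference was -1.64 ± 0.05 (adjusted p = 1.7e-15). H2AFZ differed by -0.997 ± 0.0814 in untreated cells (adjusted p = 2.12e-09) and by -0.63 ± 0.08 after H2O2 (adjusted p = 1.11e-06). In contrast, H2AFV was higher in HaCaT, at 136, 147 and 145 CPM untreated and 145, 146 and 145 after H2O2, against 82.8, 83.1 and 78.3 and then 78.9, 81.7 and 85.2 in TIGK. No library of one line overlapped the other, with a difference of 0.81 ± 0.05 in untreated cells (adjusted p = 7.43e-11) and 0.83 ± 0.05 after H2O2 (adjusted p = 5.47e-11). The differences between the lines thus had opposite signs for H2AFZ and H2AFV. H1FX, H2AFY, H2AFY2 and H3F3B were also lower in untreated HaCaT, by -0.40, -0.22, -0.43 and -0.33, while H2AFJ at 0.31, H3F3A at 0.21, H2AFX at 0.06 and H3F3C at -0.73 were not called. After H2O2, H2AFJ at 0.48, H2AFX at 0.30 and H3F3A at 0.28 were higher and H2AFY2 at -0.27 lower in HaCaT, whereas H1FX, H2AFY, H3F3B and H3F3C were not called.

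In untreated cells, 4 of 12 H2B, 3 of 8 H2A and 1 of 6 H4 replication-dependent genes were called higher in HaCaT. Their median log2 differences were 0.29, -0.17 and 0.66 in this order. Summed over the class, H2B was at 84.3 ± 4.3 CPM in untreated HaCaT against 45.7 ± 3.81 in untreated TIGK, H2A at 38.5 ± 3.24 against 24.2 ± 2.2, and H4 at 19.4 ± 0.986 against 13.1 ± 1.86, and none of these overlapped. H1 went the other way, at 11.6 ± 0.595 against 15.4 ± 1.78, and H3 overlapped at 4.04 ± 0.418 against 4.32 ± 0.328. The H1 difference followed HIST1H1C, which was lower in HaCaT by -0.41 ± 0.13 both untreated (adjusted p = 0.00827) and after H2O2 (adjusted p = 0.00771), calls lost under 11 and 8 of 24 alternatives.

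HIST1H2BN had the largest called difference in size, untreated and after H2O2. It was at 2.51, 3.35 and 2.61 CPM in untreated HaCaT against 0.421, 0.400 and 0.692 in untreated TIGK, and at 3.01, 3.02 and 2.06 against 0.608, 0.603 and 0.611 after H2O2. The lines did not overlap, and the difference was 2.48 ± 0.29 untreated (adjusted p = 3.94e-07) and 2.14 ± 0.29 after H2O2 (adjusted p = 1.92e-06). Its deposited gene of 5477 bases runs over HIST1H2AL, HIST1H2AK and a pseudogene, so the reads of these genes cannot be told apart where they overlap. HIST3H2A was measured at 11.6, 11.7 and 12.0 CPM in untreated HaCaT against 3.67, 5.46 and 5.39 in untreated TIGK, a difference of 1.28 ± 0.15 (adjusted p = 3.82e-07) that was 1.56 ± 0.15 after H2O2 (adjusted p = 2.12e-08). HIST1H2BD differed by 1.29 ± 0.11 (adjusted p = 2.67e-09) and 0.83 ± 0.10 (adjusted p = 7.27e-07), and HIST1H2BK by 1.02 ± 0.09 (adjusted p = 1.22e-08) and 1.11 ± 0.09 (adjusted p = 2.7e-09). HIST1H4I differed by 1.08 ± 0.15 and 1.01 ± 0.14, HIST1H2AG by 1.07 ± 0.23 and 1.39 ± 0.23, and HIST1H2AC by 0.54 ± 0.11 and 0.11 ± 0.11, of which the first was called, and its responses differed by 0.43 ± 0.16 (adjusted p = 0.0908). Lower in HaCaT after H2O2 was HIST1H2BG, by -0.82 ± 0.24 (adjusted p = 0.00483), a call lost without replicate 2 or 3 of either treated group.

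Values of neighbours that stand head to head are given here as a description. HIST2H2BE and HIST2H2AC stand head to head on chromosome 1 with 322 bases between their deposited ends, most of which the HIST2H2BE window printed above covers. HIST2H2BE was at 18.3, 17.7 and 15.9 CPM in untreated HaCaT against 8.35, 8.75 and 6.71 in untreated TIGK, and was higher in HaCaT by 1.12 ± 0.11 (adjusted p = 3e-08). HIST2H2AC was at 0.190, 0.0609 and 0.109 against 0.617, 0.857 and 0.403 CPM, from 2 to 9 raw counts in HaCaT and 14 to 30 in TIGK, a fitted log2 difference of -2.29 ± 0.61. HIST2H2AC reached the minimum of 10 through its counts in TIGK, where it is high, so this difference is tied to how the gene was chosen and is given as a description, although it is 1 of the 2 replication-dependent genes counted above as lower in untreated HaCaT. Its call was also lost without untreated HaCaT replicate 2 or 3 or untreated TIGK replicate 2. After H2O2, HIST2H2BE differed by 0.90 ± 0.11 (adjusted p = 6.02e-07) and HIST2H2AC by -1.26 ± 0.59, with 2 to 14 raw counts in HaCaT and 15 to 23 in TIGK. HIST2H2BE has a deposited length of 2194 bases that reaches 1729 bases past its stem-loop, and HIST2H2AC one of 390 bases that ends before it.

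Values with SE for untreated HaCaT over TIGK follow for the remaining 4 pairs with both genes measured. They were 1.28 ± 0.15 for HIST3H2A and 0.31 ± 0.47 for HIST3H2BB, and 0.54 ± 0.11 for HIST1H2AC and 0.13 ± 0.25 for HIST1H2BC. HIST1H2AG gave 1.07 ± 0.23 and HIST1H2BJ -0.11 ± 0.22, and HIST1H2AE gave 0.01 ± 0.46 and HIST1H2BG -0.44 ± 0.23. The first gene of each of the first 3 pairs was called and its neighbour was not. The difference between neighbours was not tested.

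Factors that serve histone mRNA were measured from a list of 26 genes for its transcription, 3′-end processing and decay, of which 24 were in the table and tested. In HaCaT 10 rose and 3 fell after H2O2, and in TIGK 4 rose and 4 fell. Among all genes tested, 18.9% rose and 15.2% fell in HaCaT, and 10.2% rose and 12.9% fell in TIGK. POU2F1, which encodes the factor OCT1 that binds the octamer, fell by 1.11 ± 0.10 in HaCaT (log2 change -1.11) and by 0.865 ± 0.0982 in TIGK. LSM11, a part of the U7 particle that cuts histone mRNA, fell by 0.806 ± 0.11 and 1.12 ± 0.11. LSM10, its partner, rose by 0.64 ± 0.10 in HaCaT and SNRPE, a shared Sm protein, by 0.56 ± 0.14. In TIGK, LSM10 gave 0.32 ± 0.10 (adjusted p = 0.0226) and SNRPE 0.40 ± 0.13 (adjusted p = 0.0262), which missed the limit. The cutting enzyme CPSF3 rose by 0.31 ± 0.06 in HaCaT and 0.34 ± 0.06 in TIGK, and the decay helicase UPF1 fell by 0.23 ± 0.0677 and 0.321 ± 0.0673. SLBP, picked after its values were seen, rose by 0.44 ± 0.06 in HaCaT (adjusted p = 5.09e-06) and gave -0.01 ± 0.06 in TIGK, and these responses differed by -0.45 ± 0.08 (adjusted p = 0.000927).

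Of 12 chaperones that deliver histones to replicating DNA, 6 rose in HaCaT and 5 in TIGK and 0 fell in either. ASF1A, which carries H3 and H4, rose by 0.42 ± 0.11 in HaCaT and by 0.41 ± 0.11 in TIGK. RBBP4, a subunit of the assembly factor CAF-1, rose by 0.35 ± 0.05 in HaCaT and by 0.34 ± 0.05 in TIGK. Of 15 chaperones and exchangers of replacement histones, 3 rose and 7 fell in HaCaT, and 1 rose and 4 fell in TIGK. Beside both lists, the shares over all genes were 18.9% higher and 15.2% lower in HaCaT, and 10.2% and 12.9% in TIGK. SRCAP, the motor that inserts H2A.Z, fell by 1.46 ± 0.169 in HaCaT and by 0.927 ± 0.159 in TIGK, while VPS72, a subunit of the same complex, rose by 0.57 ± 0.08 and 0.47 ± 0.08. EP400, a related motor, fell by 0.684 ± 0.0912 and 0.42 ± 0.0915. CENPA, the centromeric H3 variant, lies outside the name patterns and rose by 0.94 ± 0.11 in HaCaT (adjusted p = 1.97e-06), with 0.23 ± 0.11 in TIGK, and these responses differed by -0.71 ± 0.15 (adjusted p = 0.00508). H2BFM, H2BFWT and HILS1 had no count.

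Genes of S phase were mostly lower in HaCaT. Of 20 such genes, 14 were lower and 2 higher in untreated HaCaT than in TIGK, where 30.8% and 29.1% of all genes were, and their summed level was 2402 ± 69.2 CPM against 3399 ± 85.6, while the replication-dependent histone sum was higher in HaCaT. The difference between these sets was not tested. After H2O2 12 of them rose and 1 fell in HaCaT and 6 rose and 2 fell in TIGK, with sums of 2836 ± 85.6 and 3720 ± 44.3 CPM. Over all genes, 18.9% rose and 15.2% fell in HaCaT, and 10.2% rose and 12.9% fell in TIGK. CDT1, which licenses origins, rose by 0.77 ± 0.07 in HaCaT and gave -0.09 ± 0.07 in TIGK, and the cyclin gene CCNE2 fell by 0.547 ± 0.0975 in TIGK. Of 15 RNAs that are made without a poly(A) tail, 8 had no count, and their sum, nearly all from RN7SL2, was 38.0 ± 3.42, 38.1 ± 9.74, 31.8 ± 7.11 and 21.1 ± 1.58 CPM in untreated HaCaT, HaCaT after H2O2, untreated TIGK and TIGK after H2O2. RN7SL2 fell in TIGK by 0.62 ± 0.173 (adjusted p = 0.00914), where replication-dependent genes rose or were not called. Of these RNAs, 2 were tested, and 0 were called between the untreated lines (median log2 difference 0.27, HaCaT over TIGK). After H2O2 both were called higher in HaCaT (median 1.07), the direction of the replication-dependent sum, where 30.2% of all genes were called higher. The part of S phase and of RNA without a tail in the histone results was not tested.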

How the data were processed

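RNA was sequenced in 12 libraries from HaCaT and TIGK, with 3 in each of the 4 groups, which were taken from the sample labels. The authors deposited raw read counts per gene, mapped to GRCh38. The submitters' processing notes name HISAT2 2.0.5 and 2.0.0, StringTie 1.3.3b and featureCounts 1.5.0-p3, and the labels' protocol describes FPKM, yet the deposited values are whole and their totals differ between libraries. The annotation release, the use of strand and the handling of multiply mapped reads are not given in the sources used here. The deposited gene coordinates and lengths were used as given, and the stop codon lay inside the deposited gene for 70 of 70 genes with a stem-loop. Deposited fold changes and p-values of the authors' own comparisons were not used. The table held 0 unused columns of sample values.

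The quasi-likelihood test of edgeR 4.0.16 was run in R 4.3.3 on the counts, after TMM scaling, with 1 mean per group over all 12 libraries and a common dispersion of 0.0073. The 16618 genes whose mean raw count reached 10 were tested, p-values were adjusted by the Benjamini-Hochberg method over them, and the limit was 0.01. CPM were taken over the TMM-scaled library size (factors 0.962 to 1.04). No replicates looked like 1 library deposited again: their 12 pairs gave chi-square values of 3.70 to 19.8 for each degree of freedom. DESeq2 1.42.0 was an alternative, as were other scalings, filters and limits, fits on the groups compared alone, a replicate block and fits that each left out 1 library. Of 16 genes with an overlap or a near-identical copy, a copy was set at 50% of 50-base stretches found in another gene of GENCODE v44. On simulated counts for the response of HaCaT, in which 200 of 16618 genes were changed, 67 of 100 log2 changes of 1 and 89 of 100 of 2 were recovered, with 3 false calls. The histone responses called here were smaller than 1, and recovery of such smaller changes was not simulated. Figures were drawn with matplotlib 3.10.9.

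The genes and lists were chosen with earlier results of these data known. Any histone gene could be named. In full were given up to 5 genes per class, direction and comparison with the largest called change, the 5 of each class with the highest level per length, the replacement genes, those nearest the minimum of 10 and those whose responses differed. From other lists, up to 4 genes with the largest called change in each response could be named. Protein sequences were not analysed here.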

Additional observations from a re-analysis of the deposited data

Results flagged for a closer look

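The response of H1F0 to H2O2 differed between the lines. In TIGK minus HaCaT the difference was 0.44 on the log2 scale (SE 0.07, edgeR adjusted p = 0.000488), and it lay between 0.42 and 0.53 over 22 alternatives. All 3 treated HaCaT libraries lay below all 3 untreated ones, and the TIGK groups overlapped. No cause was tested.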

How the results depend on the processing

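Of 46 single-gene calls, 35 were kept under every alternative other than the limit on fold size, and 0 changed direction. The calls lost under another alternative were those of H3F3B in HaCaT, H3F3A and HIST1H2BK in TIGK, HIST1H1C and HIST2H2AC between untreated lines, and H2AFJ, H2AFX, H2AFY2, H3F3A, HIST1H1C and HIST1H2BG between treated lines. With a log2 change above 1 also required, the genes higher and lower after H2O2 fell from 7 to 0 and from 1 to 0 in HaCaT and from 4 to 0 in TIGK, the difference of the responses from 1 to 0, those lower in untreated HaCaT from 8 to 2, and those higher and lower in treated HaCaT from 11 to 5 and from 5 to 1. At an adjusted p limit of 0.05, 4 fell in HaCaT, 8 rose in TIGK, 2 responses were higher and 1 lower in TIGK, and 9 genes were lower in treated HaCaT. Without genes that have a copy or an overlap, 1 rose in HaCaT, 0 in TIGK, 3 were lower in untreated HaCaT, and 7 were higher and 3 lower in treated HaCaT. The replication-dependent sum then differed between the lines by 0.43 untreated and 0.34 after H2O2, and the replacement sum by -0.59 and -0.68, with a response of -0.0752 in HaCaT. Without a filter on low counts 7 rose in TIGK, as with DESeq2 on all groups, which also gave 7, and 2 responses were higher and 1 lower in TIGK. With H2AFX among the replication-dependent genes, their sum differed by 0.35 and 0.43, and without HIST1H2BK by 0.41 after H2O2. The cause of these shifts beyond the altered limit or gene set was not tested.

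Leaving out 1 library at a time gave 6 to 9 genes higher and 1 to 2 lower in HaCaT, where 2 fell without treated HaCaT replicate 1. In TIGK it gave 2 to 6 higher, with 2 without untreated TIGK replicate 3, and 0 lower. It gave 1 response higher in TIGK and 0 to 1 lower, the 1 being H2AFZ without treated HaCaT replicate 1. Between untreated lines 9 to 11 were higher and 6 to 8 lower in HaCaT. After H2O2 8 to 11 were higher and 2 to 8 lower, with 8 without treated HaCaT replicate 3, 3 without untreated or treated HaCaT replicate 2 or treated TIGK replicate 2, and 2 without treated TIGK replicate 3. Same-numbered samples showed no shared deviation, with r between -0.03 and 0.03, which cannot settle whether they were handled together. With the replicate block 3 genes rather than 5 were lower in treated HaCaT, the calls of H2AFY2 and HIST1H1C being lost. The calls of HIST1H2BK in TIGK and HIST1H1C between untreated lines were lost too, and HIST1H2AC in TIGK was gained. Medians over all genes stayed between -0.08 and 0.05 under all scalings.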
